A study of Homo sapiens with 16 samples.

Results

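The clustered histone genes are the gene copies for linker histone H1 and the core histones H2A, H2B, H3 and H4, whose symbols name the cluster and the histone (HIST1H2AC is an H2A copy in cluster HIST1). They were chosen by symbol, as every identifier whose symbol began HIST1H to HIST4H, leaving out 14 whose symbols mark a pseudogene by PS and a digit. Of 63677 identifiers in the count table, 92 met this rule, with 76 distinct symbols; the other 16 identifiers repeat a symbol. HIST2H3DP1, a pseudogene by its symbol, stayed in under this rule and had 0 reads. Messenger RNA with a poly(A) tail was sequenced in 16 libraries from SW620 and SW480, human colon cancer cell lines, in 8 groups of 2 libraries numbered I and II. The SW620 groups were cells carrying ERB (estrogen receptor beta, the product of ESR2) given 10 nM estradiol (E2) for 24 h, ERB cells given DMSO for 24 h, ERB cells without treatment, empty vector cells and parental cells. The SW480 groups were ERB cells, empty vector cells and parental cells. All were grown in the same serum-containing medium, and the E2, DMSO and untreated ERB groups all carry the ERB construct. The labels name no clone and do not tell whether libraries I and II are separate cultures. Each p-value is therefore relative to the spread of the libraries, part or all of which may be technical.

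Cells need large amounts of new histone when DNA is copied, and the clustered genes supply it in S phase. Most of their mRNAs end just past a short stem-loop instead of in a poly(A) tail; SLBP binds the loop, the U7 small nuclear RNP directs the cut, and the mRNA is destroyed when replication ends. Some clustered genes also make longer mRNAs that run past the stem-loop to an ordinary poly(A) site, and these are known from cells that have left the cycle or differentiated. Poly(A) selection keeps that second form and loses most of the other, so detection comes before levels here.

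The 2 kinds of mRNA differ in where they end: just past the stem-loop or at a later poly(A) site. The stem-loop is shown for the 5 genes with an annotated stem-loop on which the results turn. Sequences are from GENCODE release 29 transcripts, with capitals for the 16-base stem and loop.
HIST1H2AC: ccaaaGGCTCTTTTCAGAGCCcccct
HIST2H2BE: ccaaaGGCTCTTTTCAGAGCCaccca
HIST3H2A: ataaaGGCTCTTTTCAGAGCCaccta
HIST1H4H: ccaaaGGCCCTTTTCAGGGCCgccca
HIST1H3G: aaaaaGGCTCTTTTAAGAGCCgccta
In all 5 the annotated transcript goes on past the loop, by 1128 bases in HIST1H2AC, 1729 in HIST2H2BE, 390 in HIST3H2A, 1655 in HIST1H4H and 1518 in HIST1H3G. Leaving out identifiers with a shared symbol and no reads, 71 members could be classed this way. That choice dropped every identifier of HIST2H3A and HIST2H3C, whose transcripts go on 1154 bases past the loop. It also dropped HIST2H2BA, HIST2H2BB and HIST2H3DP1, in which no loop was found. All of these had 0 reads, so the choice raises the detected shares that follow. Of the 71 members, 22 have a transcript that continues 100 bases or more past the loop. Of these 22, 19 were detected with 10 or more reads over all libraries (median 165.5 reads). A transcript that ends within 100 bases of the loop is annotated for 10, of which 5 were detected (median 22.5 reads). No stem-loop was found in the annotated transcripts of the other 39, of which 31 were detected (median 42.0 reads). An annotated transcript that stops before the loop cannot show one, so this class does not mean that these genes lack a stem-loop. Of the 92 identifiers, 49 were matched to these transcripts by symbol alone, HIST1H3G among them, so the gene model that was counted can differ. The read totals of the classes are not scaled by transcript length, which differs between members. The annotated transcripts of HIST1H1C and HIST1H2BK, the members with most reads, are among these 39 and are only 642 and 381 bases long.

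The promoters show what members of a histone type share in sequence. RefSeq promoters (GRCh38.p14) matched 65 members by symbol. The 200 bases before the start are shown for HIST1H2AC, the most changed abundant member, for HIST2H2BE, and for HIST1H1B and HIST1H3G. The last 2 have few reads and were called lower with DMSO, with the limits given below. All sequences are read along the gene. Capitals mark a TATA box, CCAAT box, octamer or H1 box on either strand, spelled out after the sequences.
HIST1H2AC, chr6:26123972-26124171, plus strand: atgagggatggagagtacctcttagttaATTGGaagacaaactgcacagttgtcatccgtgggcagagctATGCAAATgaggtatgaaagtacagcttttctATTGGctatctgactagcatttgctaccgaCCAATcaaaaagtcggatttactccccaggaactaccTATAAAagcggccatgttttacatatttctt
HIST2H2BE, chr1:149886683-149886882, minus strand: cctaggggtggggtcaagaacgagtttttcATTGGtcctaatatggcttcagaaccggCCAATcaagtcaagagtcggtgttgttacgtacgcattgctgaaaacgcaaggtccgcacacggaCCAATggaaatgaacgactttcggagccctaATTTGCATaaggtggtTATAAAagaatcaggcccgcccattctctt
HIST1H1B, chr6:27867589-27867788, minus strand: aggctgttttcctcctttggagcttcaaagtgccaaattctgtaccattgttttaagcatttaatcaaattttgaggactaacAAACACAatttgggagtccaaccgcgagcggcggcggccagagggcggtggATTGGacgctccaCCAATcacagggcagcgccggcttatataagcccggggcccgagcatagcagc
HIST1H3G, chr6:26271414-26271613, minus strand: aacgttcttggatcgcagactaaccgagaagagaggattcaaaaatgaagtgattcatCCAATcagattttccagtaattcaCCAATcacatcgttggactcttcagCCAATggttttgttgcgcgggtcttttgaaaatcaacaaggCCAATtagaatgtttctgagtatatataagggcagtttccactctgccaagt
Counts were made over the 250 bases before each start, on both strands, with overlapping matches of different motifs each counted. The octamer ATTTGCAT, which POU2F1 is known to bind, was in 11 of 16 H2A and 14 of 18 H2B promoters. It was in 1 of 12 H3 promoters and in no H1 or H4 promoter, against 1.63% of 35116 RefSeq promoters. That H3 promoter is the one matched to HIST1H3D. Its window is the same as that of HIST1H2AD, so the motifs of this window were counted under both types. The H1 box AAACACA was in all 6 H1 promoters and in no other member, against 4.82% of all promoters. CCAAT was in every H1, H2A, H2B and H3 promoter and in 3 of 13 H4 promoters, against 32.01% of all. The TATA box TATAAA was in 43 of the 65, against 10.72% of all. A match is a match of letters and not a measured binding site. Many H2A and H2B genes lie head to head: 219 bases separate the starts of HIST1H2AC and HIST1H2BC, and 323 those of HIST2H2BE and HIST2H2AC.

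Library totals were 12743940 to 18948283 counted reads. ESR2, the introduced gene, had 100 to 187 reads in each of the 8 ERB libraries and 0 to 4 in each of the other 8. The transduced libraries labelled SW480 stood apart from their label: of 300 genes at least 8 times higher in parental SW480 than in parental SW620 cells, the median level in the libraries labelled SW480 empty vector was 2.2% and 2.1% of that in parental SW480, and 17.1% and 21% in those labelled SW480 ERB. It was 1.41% to 2.02% in the 10 SW620 libraries. For 35 genes higher in parental SW620 by the same rule, levels were set against parental SW620. Their median was 28.8% and 66.2% in the libraries labelled SW480 empty vector and 54.4% and 48.3% in those labelled SW480 ERB. It was 4.58% and 5.59% in parental SW480 and 47.2% to 110% in the SW620 libraries. The 4 libraries are therefore named by their label, and counts are given with and without them. Summed levels of epithelial markers were 2880 to 30300 CPM (library counts scaled to a common total, here with the trimmed mean of M values, TMM) over the 16 libraries, against 3.64 to 21.9 CPM for fibroblast, 0.225 to 2.39 CPM for leukocyte and 0.508 to 3.99 CPM for endothelial markers. CDX1, an intestinal transcription factor, COL3A1 and PECAM1 had 0 reads.

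With a minimum of 10 reads over all 16 libraries, 55 of the 92 histone identifiers were detected (59.8%), and of all 63677 identifiers 23029 were (36.2%). By the authors' deposited FPKM, which scale reads to gene length and library size, 70 of the 92 were above 0.1 in at least 2 libraries, 15 of them with under 10 reads. Another 10 had 1 to 9 reads and 27 had 0. By type, 4 of 6 H1, 13 of 21 H2A, 18 of 29 H2B, 10 of 19 H3 and 10 of 17 H4 identifiers were detected. By cluster, 47 of 57 were detected in HIST1 and 5 of 30 in HIST2, where most repeat identifiers and near-identical copies lie. HIST1H1T, the testis H1, was among the members with 1 to 9 reads, with HIST1H2AD, HIST1H4G, HIST1H4J, HIST2H2AA3, HIST2H2AA4, HIST2H2BD, HIST2H3D, HIST2H4A and HIST2H4B. HIST1H1A, HIST1H2AA, HIST1H2BA, HIST1H4F, HIST2H3A, HIST2H3C, HIST3H2BA and HIST3H3 were among those with 0, where HIST1H2AA, HIST1H2BA and HIST3H3 are known as testis forms. A count of 0 did not always go with an FPKM of 0: the mean over the 16 libraries was 0.909 FPKM for HIST2H2BA, 0.236 for HIST3H2BA and 0.185 each for HIST2H3A and HIST2H3C, all with 0 reads.

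A handful of genes held nearly all the reads. The members took 41756 reads in all, between 0.00574% and 0.0292% of a library. HIST1H1C had 12259 reads, HIST1H2BK 10019 and HIST1H2AC 6661, together 69.3%. With HIST1H2BJ (3209), HIST1H2BD (1940) and HIST2H2BE (1869) the share was 86.1%. HIST3H2A, HIST4H4, HIST1H4H and HIST1H2AG followed with 756, 415, 375 and 372 reads. H2B genes took 43.99% of the members' reads, H1 30.3% and H2A 20.21%, while H3 and H4 genes took 2.1% and 3.4%, although the nucleosome holds the 4 core histones in equal number. Of the 55 detected genes, 28 passed the low-count filter for testing and the other 27 had 12 to 76 reads each, 1039 in all. The remaining 18 tested genes had 65 to 239 reads each; they were HIST1H1B and HIST1H1E, HIST1H2AE and HIST2H2AC, HIST1H2BC, HIST1H2BG, HIST1H2BH, HIST1H2BN and HIST1H2BO, HIST1H3C, HIST1H3D, HIST1H3E, HIST1H3G, HIST1H3H and HIST1H3J, and HIST1H4C, HIST1H4E and HIST1H4I.

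**Figure D1:**
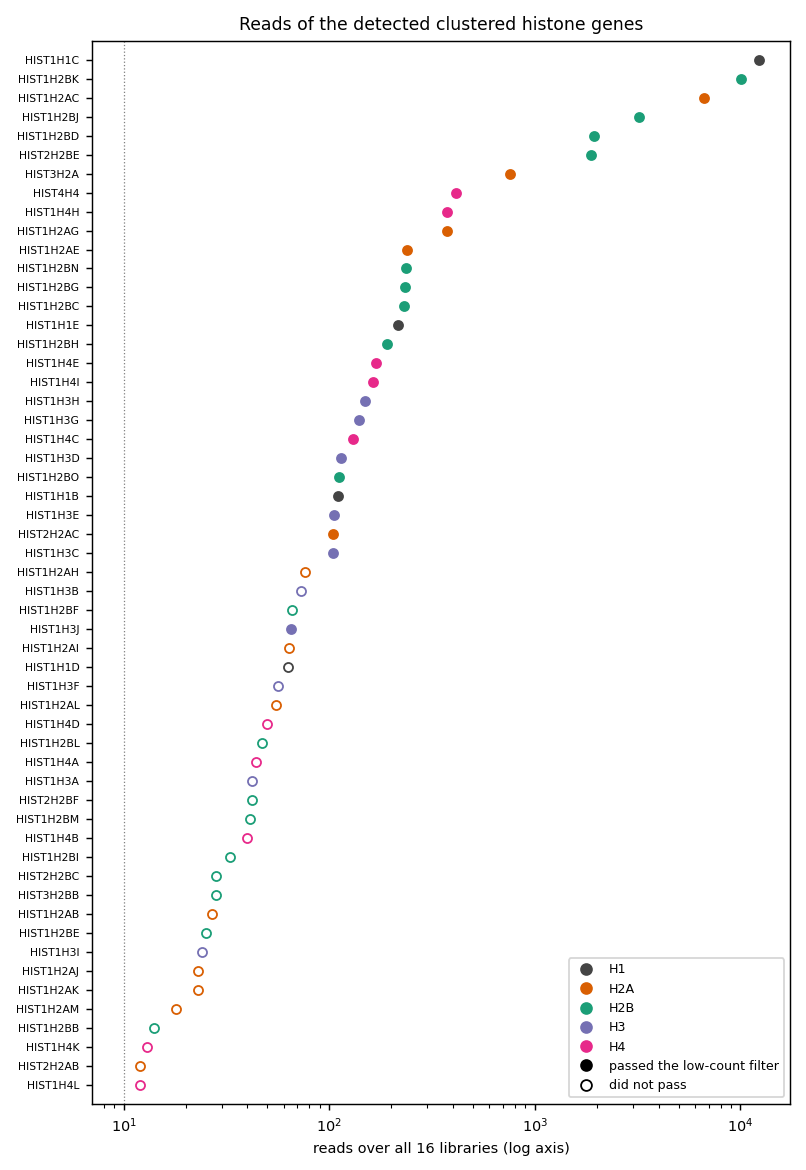
Total reads over the 16 libraries (log axis) for each detected histone gene, in order of reads and coloured by histone type; filled points passed the low-count filter and open points did not. HIST1H1C, HIST1H2BK and HIST1H2AC stand at 12259, 10019 and 6661 reads, and most H3 and H4 genes lie far below them.

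The authors' deposited FPKM values gave a similar order for the members with most reads and put some members with few reads beside them. The mean over the 16 libraries was 66.1 FPKM for HIST1H1C, 62.5 for HIST1H2BK, 37.5 for HIST1H2BJ, 15.6 for HIST1H2AC and 12.2 for HIST1H2BD. HIST2H2AA4, HIST2H4A and HIST2H4B stood at 9.60, 5.63 and 5.19 FPKM but had 1, 2 and 3 reads. HIST1H4K (5.13 FPKM, 13 reads), HIST1H4J (4.72 FPKM, 5 reads) and HIST2H2AA3 (4.65 FPKM, 4 reads) showed the same gap. These 6 genes have near-identical copies, sharing 81.2% to 100% of their 50-base stretches with another histone gene, and their levels are uncertain because reads of a copy can be counted, shared out or dropped. HIST1H2BE, at 4.50 FPKM with 25 reads, shares only 3.6%. The same limit touches some tested genes: 62.8% of the 50-base stretches of HIST1H3J, 30.5% of those of HIST2H2AC and 22.6% of those of HIST1H2BK also occur in another histone gene. HIST1H2BD overlaps the pseudogene LARP1P1, HIST1H3J overlaps HIST1H2AM and HIST1H2BN overlaps HIST1H2AL, so reads of these pairs cannot be told apart fully. In these bulk samples, fewer cells in S phase and less histone mRNA per cell cannot be told apart.

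The first question was what estradiol or its vehicle did to histone mRNAs in SW620 cells carrying ERB. HIST1H2AC, a canonical H2A gene, was the abundant member that moved. Its TMM-scaled level was 43.1 and 44.0 CPM with E2 and 50.5 and 54.9 CPM with DMSO, against 18.4 and 14.2 CPM in untreated ERB cells. All 4 treated libraries were above every untreated SW620 library, where empty vector cells had 13.9 and 16.2 CPM and parental cells 14.6 and 16.3 CPM. HIST1H2AC made up 27.1% and 25.6% of the members' reads with E2 and 35.6% and 39.6% with DMSO, against 13.7% and 9.91% in untreated ERB cells. HIST2H2BE, an H2B gene, had 11.9 and 12.7 CPM with E2 and 11.0 and 10.1 CPM with DMSO, against 5.24 and 6.25 CPM in untreated ERB cells, again without overlap.

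**Figure D2:**
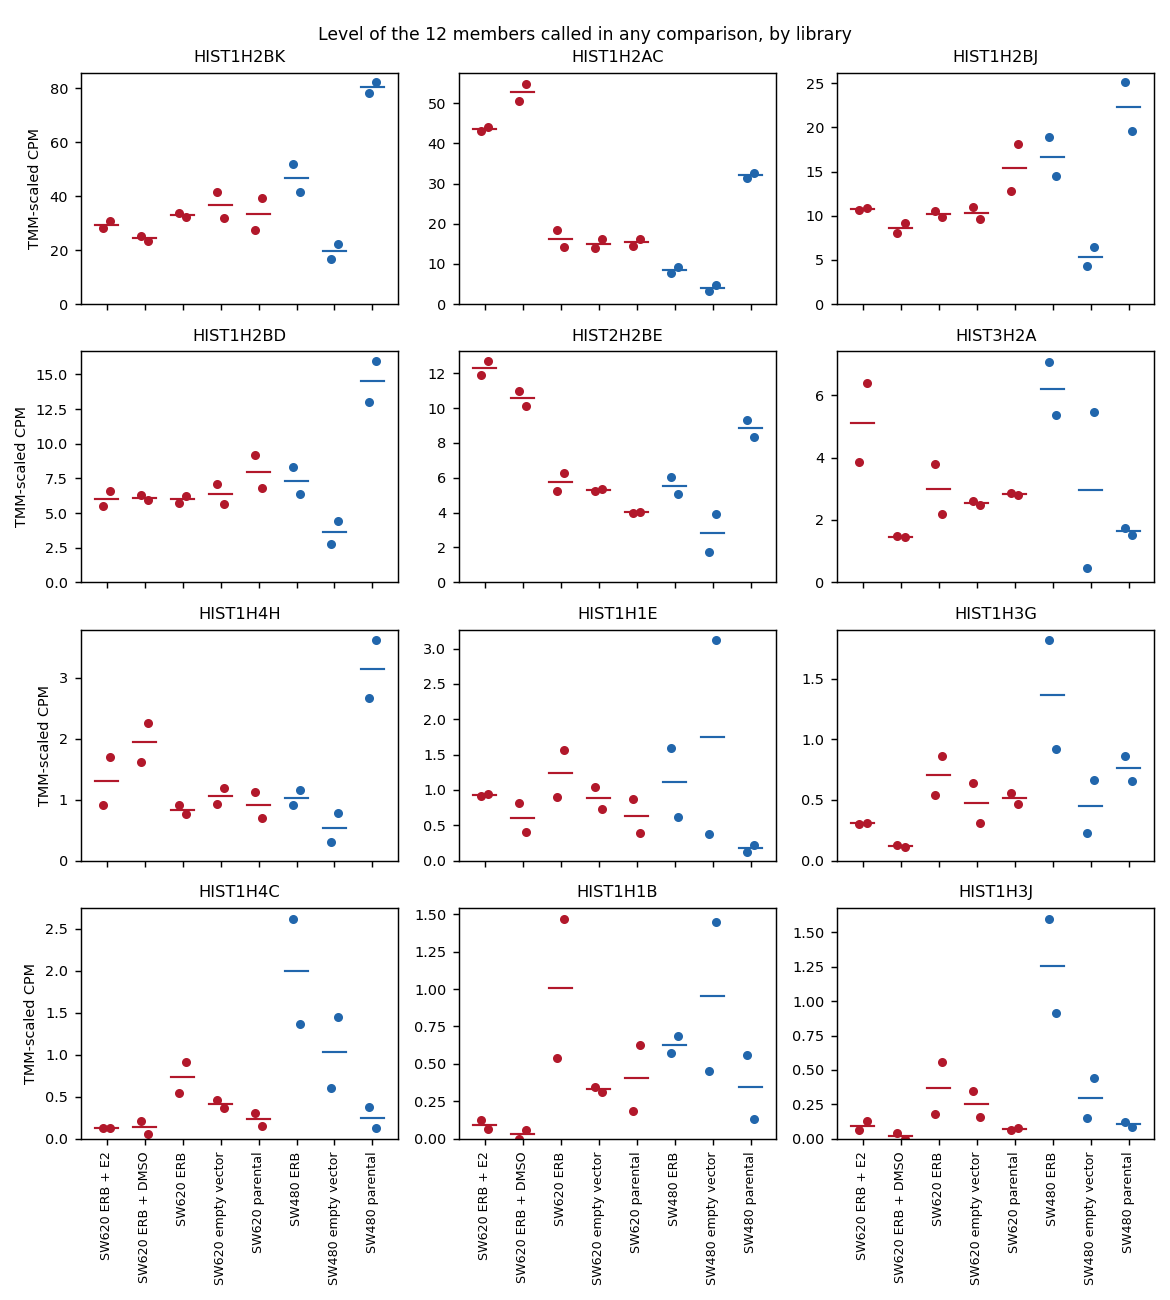
TMM-scaled level (CPM) in each library of the histone genes called in any comparison, with libraries grouped by cell line and treatment and a bar at each group mean. HIST1H2AC lies between 43.1 and 54.9 CPM in the 4 libraries given E2 or DMSO and between 13.9 and 18.4 CPM in the other 6 SW620 libraries.

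Against untreated ERB cells, DMSO changed 3 of the 28 tested histone genes (10.7%) at an adjusted p under 0.05 in edgeR's quasi-likelihood test over all 17464 tested genes, of which 6.15% were called. HIST1H2AC rose 3.23-fold, with 52.7 ± 3.08 CPM against 16.3 ± 3.01 CPM (SD, n = 2 each; log2 fold change 1.69, SE 0.29, edgeR adjusted p = 0.01). HIST1H3G, an H3 gene, had 3 and 2 reads with DMSO against 9 and 17 in untreated ERB cells, and fell by 2.46 on the log2 scale (SE 0.66, edgeR adjusted p = 0.048). HIST1H1B, an H1 gene, had 0 and 1 reads with DMSO against 9 and 29 in untreated ERB cells (edgeR adjusted p = 0.029). Its ratio was 0.0234 with a 95% counting interval of 0.000577 to 0.138. It reached the read level needed for testing in only 2 libraries, untreated ERB II and the one labelled SW480 empty vector II, so its test rests on a library of the group where it is high. None of the 3 calls was made when any single DMSO or untreated library was left out, where HIST1H2AC kept a log2 fold change of 1.52 to 1.89.

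Without the 4 transduced libraries labelled SW480, the same comparison called 9 of 28 histone genes, against 25.4% of all genes. HIST1H2AC and HIST2H2BE were higher, and HIST1H1B, HIST1H2BH, HIST1H3C, HIST1H3G, HIST1H3J, HIST1H4C and HIST2H2AC were lower. With SW620 libraries alone 15 were called, against 46.1% of all genes, and 3 of them (HIST1H2AC, HIST1H4H and HIST2H2BE) were higher. The genes that were lower had few reads. HIST1H3C, an H3 gene, had 1 and 0 reads with DMSO against 6 and 13 in untreated ERB cells. HIST1H3J, another H3 gene, had 1 and 0 reads with DMSO against 3 and 11, and HIST2H2AC, an H2A gene, 1 and 0 against 7 and 3. HIST1H4C, an H4 gene, had 5 and 1 reads with DMSO against 9 and 18, and HIST1H2BH, an H2B gene, 3 and 2 against 7 and 17. In all 5 genes both DMSO libraries had fewer reads than either untreated ERB library. The 5 were chosen by their calls in this comparison, so this adds no support.

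Across the 28 genes, 9 log2 fold changes of DMSO over untreated ERB cells were positive and 19 negative, with a median of -0.95, against 0.0 over all tested genes. With offsets for GC content and length the median was -0.16, and the same 3 genes were called. HIST1H2AC went apart from the rest of the summed level. The 10 members with most reads summed to 132 ± 0.357 CPM with DMSO and 120 ± 0.245 CPM in untreated ERB cells; without HIST1H2AC the other 9 summed to 79.1 ± 3.44 CPM and 104 ± 3.26 CPM (SD, n = 2 each). The members outside these 10 summed to 8.92 and 10.4 CPM with E2 and 9.70 and 7.10 CPM with DMSO, against 15.1 and 23.0 CPM in untreated ERB cells, 16.2 and 12.6 CPM in empty vector cells and 11.9 and 12.4 CPM in parental cells. On this TMM scale every E2 and DMSO library was below every other SW620 library, and library II of untreated ERB cells was the highest. On library totals the separation did not hold. There DMSO library I, with 228 of 17369097 reads in these members, was above parental library II, with 159 of 14002269 reads in these members. The untested members, a subset of these, summed to 1.76 ± 0.163 CPM with E2 and 2.38 ± 0.67 CPM with DMSO, against 5.73 ± 1.88 CPM in untreated ERB cells. By type, H2A genes summed to 51.3 ± 2.59 CPM with E2 and 56.8 ± 2.57 CPM with DMSO, against 23.6 ± 4.13 CPM in untreated ERB cells. This sum was carried by HIST1H2AC, without which H2A genes summed to 7.75 ± 1.89 CPM with E2 and 4.06 ± 0.518 CPM with DMSO, against 7.34 ± 1.12 CPM in untreated ERB cells. H3 genes summed to 1.83 ± 0.514 CPM with E2 and 1.35 ± 0.682 CPM with DMSO, against 4.33 ± 2.21 CPM in untreated ERB cells, where library I had 2.77 and library II 5.89 CPM. These are sums of TMM-scaled levels, and no test was run on them. Over all 92 members the sum was 166 ± 9.29 CPM with E2 and 140 ± 2.2 CPM with DMSO, against 139 ± 5.83 CPM in untreated ERB cells; in CPM of the library total, without TMM, it was 177 ± 5.52, 190 ± 2.29 and 146 ± 6.02 CPM.

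**Figure D3:**
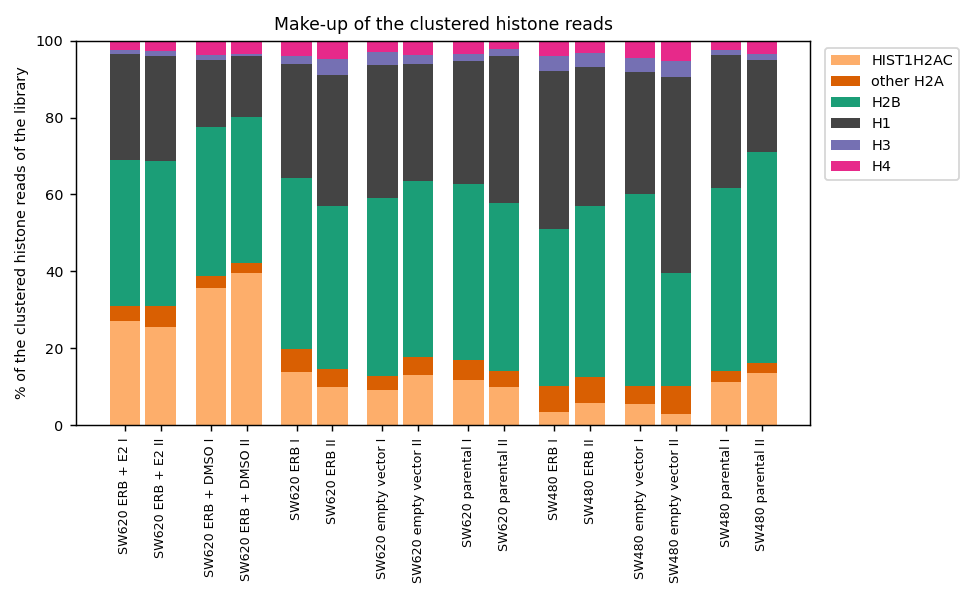
Share of the members' reads taken by each histone type or leading gene in every library, as stacked bars that sum to 100%. HIST1H2AC takes 25.6% to 39.6% in the libraries given E2 or DMSO and 2.9% to 13.7% in all others.

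E2 was also set against untreated ERB cells, a comparison added after the values had been seen. It changed 1 of the 28 tested genes, against 1.73% of all genes. HIST1H2AC rose 2.67-fold, with 43.5 ± 0.7 CPM against 16.3 ± 3.01 CPM (SD, n = 2 each; log2 fold change 1.42, SE 0.29, edgeR adjusted p = 0.034). HIST2H2BE had 12.3 ± 0.528 CPM with E2 and 5.74 ± 0.712 CPM in untreated ERB cells and did not pass (edgeR adjusted p = 0.16). Without the 4 transduced libraries labelled SW480, HIST1H2AC and HIST2H2BE were called, against 9.38% of all genes. HIST1H1B had 2 and 1 reads with E2 (edgeR adjusted p = 0.11). The E2 and DMSO comparisons share the untreated libraries, and no call was made when any single E2 or untreated library was left out.

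**Figure D4:**
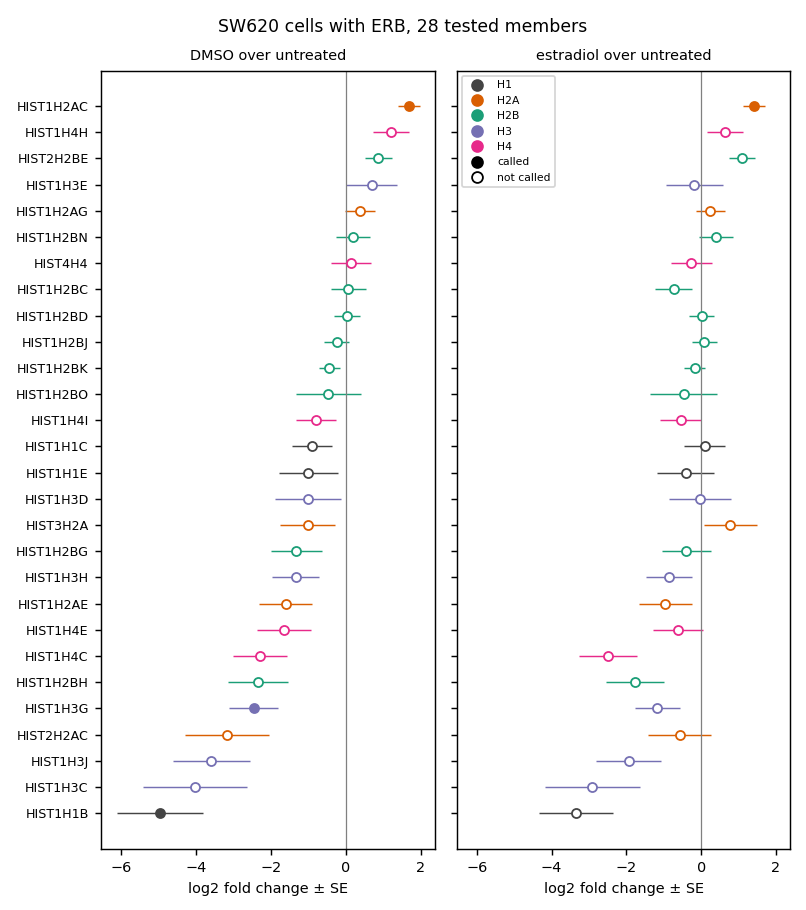
Log2 fold changes with standard errors for the 28 tested histone genes, for DMSO (left) and E2 (right) over untreated SW620 cells with ERB, coloured by histone type and with called genes filled. HIST1H2AC is at 1.69 with DMSO and 1.42 with E2, and HIST1H1B at -4.98 with DMSO is the lowest value.

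E2 against its own vehicle changed none of the 28 genes in edgeR's test, where 0.0% of all genes were called. Unadjusted p-values were under 0.05 for 1 histone gene and for 3469 of all genes, and DESeq2 and limma also called 0 histone genes. That gene was HIST3H2A, an H2A copy outside the main cluster, which had 3.85 and 6.39 CPM with E2 and 1.49 and 1.44 CPM with DMSO (edgeR adjusted p = 0.24). HIST1H1C, a somatic H1 gene, had 42.7 and 45.9 CPM with E2 and 23.7 and 21.2 CPM with DMSO, against 38.2 and 45.3 CPM in untreated ERB cells (E2 over DMSO log2 fold change 0.98, edgeR adjusted p = 0.25). E2 and DMSO libraries did not overlap in either gene, which adds no support for HIST3H2A, chosen by its p-value. Both were called with the SW620 libraries alone, where 49.9% of all genes were called. With GC and length offsets on these libraries neither was called, and HIST1H2BN, higher, and HIST1H2BK, lower, were, against 17.2% of all genes. HIST1H2AC did not pass between E2 and DMSO.

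The other members with many reads were not called in these comparisons over all 16 libraries. HIST1H2BK had 28.1 and 30.9 CPM with E2 and 25.4 and 23.3 CPM with DMSO, against 33.9 and 32.3 CPM in untreated ERB cells. Its direction depended on the processing: the log2 fold change of DMSO over untreated ERB cells was -0.44 (edgeR adjusted p = 0.31), and 0.80 (edgeR adjusted p = 0.00075) with SW620 libraries alone and GC and length offsets, where 44.0% of all genes were called. HIST1H2BJ had 10.7 and 10.9 CPM with E2 and 8.09 and 9.23 CPM with DMSO, against 10.5 and 9.91 CPM in untreated ERB cells. HIST1H2BD had 5.5 and 6.58 CPM with E2 and 6.3 and 5.94 CPM with DMSO, against 5.72 and 6.25 CPM in untreated ERB cells. E2 and untreated ERB libraries overlapped for HIST1H2BD and not for HIST1H2BK and HIST1H2BJ, which differed 1.12-fold and 1.06-fold. HIST4H4, an H4 gene apart from the main clusters, had 1.77 and 1.07 CPM with E2 and 2.34 and 1.39 CPM with DMSO, against 1.63 and 1.78 CPM in untreated ERB cells. HIST1H4H had 0.916 and 1.69 CPM with E2 and 1.62 and 2.25 CPM with DMSO, against 0.904 and 0.762 CPM in untreated ERB cells. HIST1H2AG had 1.53 and 1.57 CPM with E2 and 1.62 and 1.79 CPM with DMSO, against 1.45 and 1.17 CPM in untreated ERB cells. HIST1H2BC, whose start lies head to head with that of HIST1H2AC, had 6 and 11 reads with E2 and 17 and 20 with DMSO, against 16 and 16 in untreated ERB cells. On library totals the median log2 ratio of DMSO to untreated ERB cells over all genes was 0.37 where TMM put it at 0.01, and on that scale HIST1H2BJ changed sign.

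Genes of DNA replication were followed in the same comparisons. Of 30 tested S phase genes, none rose and 13 fell with DMSO against untreated ERB cells, with a median log2 fold change of -1.33. Of all genes, 2.39% rose and 3.76% fell. Without the 4 transduced libraries labelled SW480, where 25.4% of all genes were called, 26 of the 30 S phase genes fell. Their summed level was 3120 to 3160 CPM with E2 and 2520 to 2530 CPM with DMSO, against 6570 to 7000 CPM in untreated ERB cells. TYMS, thymidylate synthase, had 53.8 ± 4.32 CPM with DMSO against 238 ± 20.4 CPM in untreated ERB cells (edgeR adjusted p = 0.0087), and GINS2, a helicase subunit, 29.3 ± 5.37 CPM against 152 ± 5.88 CPM (edgeR adjusted p = 0.008; SD, n = 2 each). CDC45 also fell by 1.72 on the log2 scale. With E2 against untreated ERB cells, 3 of the 30 fell (TYMS, GINS2 and RRM2). Of 22 histone chaperone genes 4 fell with DMSO, among them ASF1B, at 42.0 ± 1.14 CPM against 208 ± 3.88 CPM, CHAF1A and CHAF1B, the last 2 being subunits of the factor that deposits new histones at forks. CHAF1A was the 1 chaperone gene that fell with E2.

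A few histone genes outside the S phase clusters and genes of cell cycle exit were called in the same comparisons. H1F0, the linker histone of non-dividing cells, rose to 1210 ± 38.7 CPM with E2 and 1050 ± 31.7 CPM with DMSO, against 371 ± 17.7 CPM in untreated ERB cells (edgeR adjusted p = 0.044 with E2 and 0.037 with DMSO; SD, n = 2 each). It was the 1 of 12 replication-independent variant genes that rose in each comparison, and H2AFY, the macroH2A gene, fell by 0.99 on the log2 scale with DMSO. CDKN2B, an inhibitor of cyclin-dependent kinases, rose to 23.5 ± 0.362 CPM with E2 and 32.6 ± 0.412 CPM with DMSO, against 5.38 ± 0.0619 CPM in untreated ERB cells; of the 10 exit genes it alone rose, and CDKN1C and CDKN2C fell with DMSO. Of 21 genes of histone mRNA processing and transcription 1 fell with DMSO, SRRT, a nuclear cap-binding partner, at 119 ± 10.3 CPM against 335 ± 4.48 CPM, and none was called with E2 in edgeR's test.

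RNAs that lack a poly(A) tail other than histone mRNA were also lower with DMSO than in untreated ERB cells. Of 7 tested, all had negative fold changes with DMSO against untreated ERB cells, with a median of -3.79, and TERC and RMRP were called. TERC, the telomerase RNA, had 0 reads in both DMSO libraries. The summed level of these RNAs was 11.1 to 12.7 CPM with E2 and 9.12 to 10.8 CPM with DMSO. It was 17.1 CPM in library I and 63.0 CPM in library II of untreated ERB cells, so the untreated libraries differed among themselves. Empty vector cells had 13.2 to 20.8 CPM and parental cells 11.4 to 15.2 CPM, which the E2 libraries overlapped. The contrast with untreated ERB cells thus rests largely on library II. All 13 mitochondrially encoded mRNAs were also lower with DMSO, with a median of -0.56 and no call. Summed levels of epithelial markers were 7060 to 8380 CPM with E2 and 3360 to 3920 CPM with DMSO, against 10400 to 10600 CPM in untreated ERB cells, and those of fibroblast markers 5.62 to 6.39, 5.02 to 5.31 and 8.03 to 10.4 CPM. The part of RNA selection, marker levels or cell cycle in the histone values was not tested.

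The next question was what ERB or the empty vector did in SW620 cells. No histone gene was called by edgeR for ERB against empty vector, ERB against parental or empty vector against parental cells, where 0.00573%, 0.00573% and 0.0% of all genes were called. Unadjusted p-values were under 0.05 for 0, 2 and 0 histone genes, and DESeq2 and limma called none. HIST1H1C had 38.2 and 45.3 CPM in ERB cells, 50.6 and 36.7 CPM in empty vector cells and 38.6 and 62.4 CPM in parental cells, with overlapping ranges. HIST1H2BK likewise had 33.9 and 32.3 CPM in ERB cells, 41.4 and 32.1 CPM in empty vector cells and 27.6 and 39.5 CPM in parental cells. Summed over all members, the level in CPM of the library total was 146 ± 6.02 CPM in ERB cells, 145 ± 7.04 CPM in empty vector cells and 146 ± 7.96 CPM in parental cells (SD, n = 2 each). The spread within groups was larger than the differences between them.

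The scarce members, several of them lower with DMSO, were not called in these comparisons. HIST1H3G had 9 and 17 reads in ERB cells, 11 and 6 in empty vector cells and 9 and 6 in parental cells, and 5 and 5 with E2. HIST1H1B had 9 and 29 reads in ERB cells, 6 and 6 in empty vector cells and 3 and 8 in parental cells. Library II of untreated ERB cells was the highest SW620 library for HIST1H1B, HIST1H3G, HIST1H4C and HIST1H1E. HIST1H4C had 2 and 2 reads with E2, 9 and 18 in ERB cells, 8 and 7 in empty vector cells and 5 and 2 in parental cells. HIST1H1E had 15 and 15 reads with E2 and 19 and 7 with DMSO, against 15 and 31 in untreated ERB cells, and 18 and 14 in empty vector and 14 and 5 in parental cells. HIST1H3J had 1 and 2 reads with E2, 3 and 11 in ERB cells, 6 and 3 in empty vector cells and 1 and 1 in parental cells. HIST1H2BJ, with more reads, had 10.5 and 9.91 CPM in ERB cells, 11.0 and 9.63 CPM in empty vector cells and 12.8 and 18.1 CPM in parental cells. HIST1H2BD had 5.72 and 6.25, 7.08 and 5.64, and 9.18 and 6.77 CPM in ERB, empty vector and parental cells. HIST2H2BE had 5.24 and 6.25 CPM in ERB cells, 5.22 and 5.38 CPM in empty vector cells and 3.97 and 4.05 CPM in parental cells, and HIST3H2A 3.79 and 2.18, 2.61 and 2.48, and 2.85 and 2.8 CPM in the same groups.

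SW620 and SW480 come from a lymph node metastasis and the primary tumour of the same patient, and their parental cells were compared next. In parental SW620 against parental SW480 cells 3 of 28 histone genes fell, where 18.0% of all genes were called and 11.2% were lower. HIST1H2BK, an H2B gene, had 27.6 and 39.5 CPM in SW620 cells and 78.4 and 82.3 CPM in SW480 cells (log2 fold change -1.26, SE 0.29, edgeR adjusted p = 0.0097). HIST1H2AC had 14.6 and 16.3 CPM against 31.5 and 32.6 CPM (log2 fold change -1.05, SE 0.29, edgeR adjusted p = 0.024). HIST1H4H, an H4 gene, had 1.12 and 0.701 CPM against 2.66 and 3.62 CPM (log2 fold change -1.77, SE 0.47, edgeR adjusted p = 0.021). Without the 4 transduced libraries labelled SW480, HIST1H2BD, HIST1H2BH and HIST2H2BE were called too, against 31.8% of all genes. Calls were lost without SW620 parental library I or II or SW480 parental library II. With any single library left out, HIST1H2BK kept a log2 fold change of -1.55 to -1.03. The summed level was 146 ± 7.96 CPM in SW620 and 288 ± 5.81 CPM in SW480 cells in CPM of the library total (SD, n = 2 each), and 23 of 28 log2 fold changes were negative. Of the S phase genes, 3 of 30 fell and none rose, and of the 10 exit genes 5 fell.

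Against parental SW480 cells, the libraries labelled SW480 ERB had 8 of 28 histone genes called, where 44.4% of all genes were called. HIST1H2AC had 7.87 and 9.32 CPM in them and 31.5 and 32.6 CPM in parental cells, a 3.72-fold fall (log2 fold change -1.90, SE 0.30, edgeR adjusted p = 0.002). HIST1H2BK had 52.0 and 41.7 CPM against 78.4 and 82.3 CPM, HIST1H2BD 8.33 and 6.34 CPM against 13 and 16 CPM, and HIST1H4H 0.912 and 1.15 CPM against 2.66 and 3.62 CPM; all 3 fell. The 4 called higher had fewer reads. HIST3H2A had 7.07 and 5.35 CPM against 1.73 and 1.53 CPM (edgeR adjusted p = 0.049), HIST1H4C 23 and 18 reads against 6 and 3, HIST1H3J 14 and 12 reads against 2 and 2, and HIST1H1E, an H1 gene, 14 and 8 reads against 2 and 5. HIST1H3J reached the read level needed for testing only in the libraries labelled SW480 ERB, so it was tested because it was high there, and its call is no evidence of a rise. Groups did not overlap in any of the 8. The 8 were chosen by their call in this same comparison, so this adds no support. HIST1H1C, not called, had 92.0 and 58.1 CPM in the libraries labelled SW480 ERB and 95.7 and 57.7 CPM in parental cells. Without the libraries labelled SW480 empty vector 9 were called, HIST2H2BE being added, against 58.9% of all genes; with SW480 libraries alone none was called by edgeR, against 0.0% of all genes, while 3 had an unadjusted p under 0.05. Fewer than the 8 were called without SW480 parental library II or either library labelled SW480 ERB. With any single library left out, HIST1H2AC kept a log2 fold change of -2.08 to -1.85.

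The libraries labelled SW480 empty vector, against parental SW480 cells, also had 8 of 28 called, where 30.9% of all genes were called, and this comparison shares the parental libraries with the last. HIST1H2AC had 3.23 and 4.67 CPM in them (8.13-fold lower, edgeR adjusted p = 9.7e-05), HIST1H2BK 16.7 and 22.4 CPM, and HIST1H2BJ 4.28 and 6.46 CPM against 25.1 and 19.6 CPM in parental cells. HIST1H2BD, with 2.78 and 4.45 CPM, HIST2H2BE, with 1.73 and 3.9 CPM against 9.32 and 8.34 CPM, and HIST1H4H, with 0.3 and 0.779 CPM, fell as well. HIST1H1E (5 and 28 reads against 2 and 5) and HIST1H4C (8 and 13 reads against 6 and 3) rose, with log2 fold changes of 3.19 and 2.02. Without the library labelled SW480 empty vector II these were 1.04 and 1.30, and neither was called. Without SW480 parental library II they were 3.66 and 1.39, again with no call, and without SW480 parental library I HIST1H1E was at 2.86 with no call. Replicates differed widely here: HIST1H1C had 17.8 and 77.4 CPM and HIST3H2A 0.451 and 5.45 CPM in the libraries labelled SW480 empty vector. HIST1H2AC was the 1 gene called with SW480 libraries alone, against 3.85% of all genes. These libraries are the ones whose SW480 genes stood at 2.2% and 2.1%, and the part of that in the fall was not tested.

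Between the libraries labelled SW480 ERB and those labelled SW480 empty vector, 1 of 28 histone genes was called, where 1.1% of all genes were. HIST1H2BJ had 18.9 and 14.5 CPM in the ERB libraries and 4.28 and 6.46 CPM in the empty vector libraries (log2 fold change 1.64, SE 0.34, edgeR adjusted p = 0.041); with SW480 libraries alone edgeR called 0 histone genes, against 0.0% of all genes, with an unadjusted p under 0.05 for 2. Leaving out the library labelled SW480 empty vector II raised the count, and leaving out any other of the 4 removed the call. HIST1H2BJ kept a log2 fold change of 1.37 to 1.91 in these fits. The effect of ERB over empty vector did not differ between libraries labelled SW480 and SW620 for any histone gene by edgeR's interaction term, where 0.189% of all genes were called, 4 histone genes had an unadjusted p under 0.05, and DESeq2 called none. The effect of the empty vector over parental cells differed between the lines for 4 histone genes, where 7.2% of all genes were called; HIST1H2AC, HIST1H2BK, HIST2H2BE and HIST1H4H were lower in the libraries labelled SW480 and not called in SW620.

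**Figure D5:**
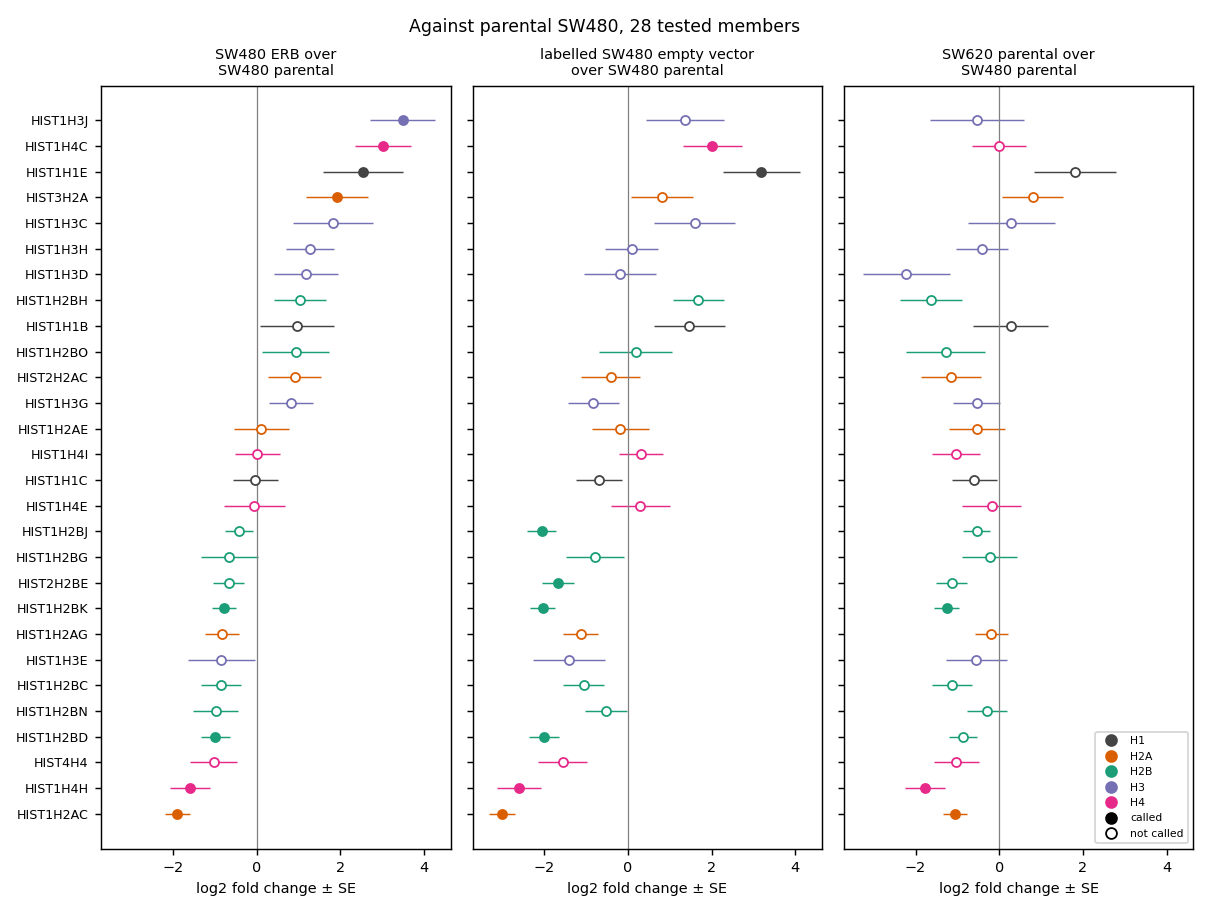
Log2 fold changes with standard errors for the 28 tested histone genes, for libraries labelled SW480 ERB and SW480 empty vector over parental SW480 cells and for parental SW620 over parental SW480 cells, with called genes filled. HIST1H2AC lies left of 0 in all 3, at -1.90, -3.02 and -1.05.

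Of the companion lists, SW480 comparisons gave calls in both directions. In the libraries labelled SW480 ERB against parental SW480 cells, 3 S phase genes rose and 6 fell of 30, 6 chaperone genes rose and 4 fell of 22, and 4 processing genes rose and 6 fell of 21, where 19.5% of all genes rose and 24.9% fell. RRM2, a subunit of ribonucleotide reductase, had 250 ± 39.0 CPM in the libraries labelled SW480 ERB and 700 ± 208 CPM in parental cells, and CCNE2 and RFC3 also fell. HIRA, a chaperone for replication-independent histones, rose to 34.7 ± 3.89 CPM, against 17.0 ± 2.26 CPM, and CABIN1, its partner, rose too. Of the 12 variant genes 1 rose, the macroH2A gene H2AFY2, and 3 fell, among them H2AFZ and CENPA. NPAT, the coactivator of clustered histone genes, had 0.401 CPM in the libraries labelled SW480 ERB and 15.6 ± 17.2 CPM in parental cells (SD, n = 2 each), so parental libraries were far apart. In the libraries labelled SW480 empty vector against parental cells, 1 S phase gene rose and 4 fell, and 2 processing genes, SRRT and MIF4GD, rose and none fell, where 14.9% of all genes rose and 16% fell. Mitochondrially encoded mRNAs rose for 3 and fell for 1 of 13 in the ERB libraries, and rose for 9 and fell for 1 in the empty vector libraries. Fibroblast markers summed to 12.4 to 13.6 CPM in the ERB libraries and 10.1 to 21.9 CPM in the empty vector libraries, against 3.64 to 10.6 CPM in parental cells, and epithelial markers to 16100 to 29800 and 8450 to 30300 CPM, against 2880 to 5600 CPM. The part of these in the histone values was not tested.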

How the data were processed

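Poly(A)-selected, stranded RNA-seq libraries were made from each sample, per the labels' protocols. The authors deposited whole-number read counts per gene and FPKM values; the submitters' processing notes list HTSeq 0.6.1, Cufflinks 2.1.1, the aligner TopHat2 2.0.4, Picard 1.29 and SAMtools, with the build GRCh37. The strand setting of the counting is not given in these sources. The FPKM values deposited by the authors were used as an alternative and to compare levels between genes. Members were matched to the counts by identifier; 22 identifiers have no FPKM value.

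Counts of all 16 libraries were fitted with edgeR 4.0.16 in R 4.3.3 (filterByExpr, TMM factors of 0.585 to 1.36, quasi-likelihood test, 8 groups), with Benjamini-Hochberg adjustment over 17464 genes and a threshold of 0.05. Levels are CPM scaled by TMM unless said otherwise. An exact permutation test of 2 libraries against 2 cannot go below p = 0.333. Alternatives used limma 3.58.1, DESeq2 1.42.0, other filters, scalings, library sets and GC and length offsets. Ratios resting on 1 to 3 reads have exact 95% intervals, which cover counting error only. The fit was tested on simulated data. Replicate libraries differed by more than sampling noise, with a chi-square per degree of freedom of 6.62 to 251. Stem-loops come from GENCODE release 29 transcripts and promoters from RefSeq; neither is of the files' build, and coordinates are those of GRCh38.p14.

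All tested histone genes are named, values per library are given for the 10 with most reads and for those called in any comparison, and companion lists name up to 3 called genes. The histone genes, the lists and the tests were chosen with earlier results of these data known.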

Additional observations from a re-analysis of the deposited data

Results flagged for a closer look

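For 4 histone genes the effect of the empty vector over parental cells differed between libraries labelled SW480 and SW620 libraries, by an interaction term in edgeR, adjusted over all genes. The difference of log2 fold changes, SW480 minus SW620, was -2.99 for HIST1H2AC (SE 0.42, edgeR adjusted p = 0.0022), -2.18 for HIST1H2BK (SE 0.41, edgeR adjusted p = 0.0086), -2.07 for HIST2H2BE (SE 0.53, edgeR adjusted p = 0.035) and -2.81 for HIST1H4H (SE 0.71, edgeR adjusted p = 0.035). HIST1H2AC had 3.23 and 4.67 CPM in libraries labelled SW480 empty vector against 31.5 and 32.6 CPM in SW480 parental cells, and 13.9 and 16.2 CPM in SW620 empty vector cells against 14.6 and 16.3 CPM in SW620 parental cells. These differences rest on the libraries labelled SW480 empty vector, which held genes high in parental SW480 cells at 2.2% and 2.1% of the parental level. The part of that in the differences was not tested.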

How the results depend on the processing

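The counts below are of histone genes called among those tested. The share of all genes called changed with the setting too, so a change in a count is no result about histone genes alone. For DMSO over untreated ERB cells this share was 6.15% over all 16 libraries and 25.4% without the 4 transduced libraries labelled SW480. It was 46.1% with SW620 libraries alone and 44.0% with GC and length offsets on these. Shares are not given here for most other settings. Of 443 alternative values for the 28 results in which a histone gene was called, 299 kept the call, 144 lost it and none changed direction. Over all tested histone genes and comparisons, 373 of 5428 alternative values had the other direction and 6 of these were called: HIST1H2BK for DMSO over untreated ERB cells (0.80, against -0.44) and E2 over DMSO (-0.95, against 0.28) with GC and length offsets on SW620 libraries, and, for libraries labelled SW480 empty vector over parental, HIST1H2BO under each use of limma on FPKM (-1.63 to -1.22, against 0.19) and HIST3H2A without the library labelled SW480 empty vector II (-1.85, against 0.81). The cause of the changes was not tested. For DMSO over untreated ERB cells (3 called) the count was 10 with no low-count filter, 1 with a filter of 1 CPM in 4 libraries, 6 with limma on log2(FPKM + 1), 7 with limma and no filter, 14 with the groups of the comparison alone, 15 with SW620 libraries alone, 9 with GC and length offsets on these, 9 without the 4 transduced libraries labelled SW480 and 0 without any single library. For E2 over untreated ERB cells (1 called) it was 5 with GC and length offsets, 2 with DESeq2 or limma on log2(FPKM + 1), 0 with limma on log2(FPKM + 0.1), 4 with limma and no filter, 7 with the groups alone, 4 with SW620 libraries alone, 5 with GC and length offsets on these, 2 without the 4 libraries and 0 without any single library. For E2 over DMSO (0 called) it was 1 with no low-count filter, 2 with the groups alone, 2 with SW620 libraries alone (HIST1H1C and HIST3H2A), 2 with GC and length offsets on these (HIST1H2BK and HIST1H2BN) and 0 without any single library. For parental SW620 over SW480 cells (3 called) it was 10 with GC and length offsets, 5 with DESeq2 or limma on log2(FPKM + 1), 10 with limma and no filter, 0 with the groups alone, 6 without the 4 libraries and 0 to 3 without a single library. For libraries labelled SW480 empty vector over parental (8 called) it was 13 with limma and no filter, 0 with the groups alone, 1 with SW480 libraries alone and 6 to 11 without a single library. For SW480 ERB over parental (8 called) it was 4 with the 1 CPM filter, 5 with the groups alone, 0 with SW480 libraries alone and 1 to 8 without a single library. For SW480 ERB over empty vector (1 called) it was 0 with RLE size factors, no filter, the groups alone or SW480 libraries alone, 3 with DESeq2, limma on log2(FPKM + 1) or limma with no filter, 2 with limma on log2(FPKM + 0.1) and 0 to 6 without a single library. For the empty vector interaction (4 called) it was 8 with GC and length offsets or limma with no filter, 7 with limma at either pseudocount, 0 with the groups alone and 2 to 8 without a single library; for the ERB interaction (0 called) it was 1 with GC and length offsets, 2 with limma and no filter, and 0 to 1 without a single library. The labels do not tell whether the numbers I and II pair the libraries. Of 28 correlations of same-numbered deviations, from -0.74 to 0.66, 9 were over 0.1, which cannot settle whether some groups are paired. With the replicate block the count was 0 for SW480 ERB over empty vector, 4 for SW480 ERB over parental, 0 for E2 over untreated ERB cells and within 1.5 times of the count without it elsewhere. A minimum of 100 reads left 27 histone genes detected. The log2 ratio of the summed histone level, in CPM of the library total, was -0.98 for parental SW620 over SW480 cells, -0.84 with TMM, -0.86 from FPKM and -1.09 without the member with most reads. It was 0.38 for DMSO over untreated ERB cells, with 0.01, -0.09 and 0.64 under the same 3 alternatives, -0.11 for E2 over DMSO (0.24, 0.2 and -0.3) and -1.03 for SW480 ERB over parental (-0.4, -0.53 and -1.21). It was 0.28 for E2 over untreated ERB cells, 0.1 from FPKM and 0.34 without that member, 0.09 without it for SW620 ERB over parental and -1.24 with TMM for SW480 empty vector over parental. Without a single library the ratio was -2.33 to -1.61 for SW480 empty vector over parental and 0.58 to 1.3 for SW480 ERB over empty vector. Depth limits the scarce genes: 27 of the 55 detected, with 12 to 76 reads each, were not tested.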
